A study of Mus musculus with 11 samples.

Results

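The transcripts described here come from 29 genes that make cholesterol and fatty acids or control that synthesis, measured in mouse embryonic stem (ES) cells. They were chosen by name from textbook pathways: 7 genes of the mevalonate and isoprenoid steps, 11 of the squalene and sterol steps, 3 regulators, 7 of fatty acid synthesis and 1 sterol transfer protein. All 29 had a row among the 12588 genes of the bulk table. Of the single-cell data, the table for wild-type cells in serum on plastic held 28 members among 23152 genes, since Fdps had no column. The other 4 single-cell tables held all 29, of between 21936 and 23031 genes.

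Cholesterol is built from acetyl-CoA through mevalonate, isoprenoids, squalene and lanosterol, and fatty acids are built from the same precursor through malonyl-CoA. The transcription factors SREBP2 and SREBP1, products of Srebf2 and Srebf1, are held in the endoplasmic reticulum by INSIG proteins when sterol is plentiful. When sterol runs low they are released by proteolysis and raise the transcription of most enzymes listed here. Serum carries lipids that cells can take up, whereas in 2i medium kinase inhibitors that block MEK and GSK3 keep ES cells naive in place of serum.

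The series comprised 11 samples of polyadenylated RNA. For bulk sequencing, Smart-seq2 libraries from about 1000 cells each were made from the Rex1GFPd2 line, a reporter line labelled wild type, in 2i/LIF: 3 from agarose microgels with cells embedded in them and 3 from tissue-culture plastic. For single-cell sequencing, inDrop libraries, in which transcripts are counted by unique molecular identifiers (UMIs), were made with 1 library per condition. Wild-type E14 cells gave 3 of the libraries, from plastic with serum/LIF, plastic with 2i/LIF and agarose microgels with serum/LIF. The other 2 came from lines with plakoglobin, the product of Jup, overexpressed from the CAG promoter at a low level (genotype PGLOW) or a high level (PGHIGH), in serum/LIF on plastic. LIF, a cytokine that sustains self-renewal, was present in every group. The CAG promoter is active in most cell types, the parent line of the plakoglobin lines is not named, and the labels do not say whether each is a single clone. Medium and assay went together for gel: gel against plastic was measured in 2i by bulk sequencing of 1 line and in serum by single cells of another.

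The bulk libraries held 637235 to 2583256 recovered reads. In the single-cell libraries, cells were barcodes with at least 1000 UMIs, and they numbered 725 in wild-type serum on plastic, 2889 in 2i, 112 in the serum gel, 1200 in JupLow and 2153 in JupHigh, with 0 barcodes shared between libraries. The gel table was held only in part, so its low cell number is not that of the experiment. ES cell markers were present in every library: all 8 of the list in bulk, and 7 or 8 of 8 in single cells, where Sox2 had no column in the wild-type serum table. Jup itself stood at 37.9 CPM (UMIs as a share of the library, scaled to 1000000; 95% exact Poisson interval 31.1 to 45.7) in JupLow, 47.8 CPM (41.5 to 54.8) in JupHigh and 36.7 CPM (28.8 to 46.0) in wild-type serum. Wild type in 2i stood at 46.7 CPM (42.2 to 51.6). These intervals overlap, so the libraries are called here by their labels, JupLow and JupHigh, without the level of overexpression being borne out by the counts. Whether transcripts of the transgene were counted under Jup is not known, so the counts do not show that overexpression was absent. The wild-type serum table on plastic stood apart from the rest. It lacked a column for 124 genes that had at least 20 CPM in every other library with a column for them, against 27 for each other table. Genes with a column in only some of the other tables were counted. The wild-type serum table held 186 genes at 50 CPM or more and at least 4 times every other library, against 1 to 11 elsewhere. For that count a missing column was taken as 0.

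The stretches upstream of 3 members are shown because these genes carry different parts of the results: Hmgcs1 was lower in the library labelled JupHigh than in JupLow, and Srebf2 and Fasn rose in gel in bulk. They were chosen after their values were seen. Each is taken from the 250 bases before the RefSeq start site (GRCm38.p6) and written 5′ to 3′ on the gene's strand: Hmgcs1 at chr13:119690101-119690350 (plus), Srebf2 at chr15:82147019-82147180 (plus) and Fasn at chr11:120824548-120824797 (minus). For Srebf2 the last 88 of the 250 bases lie inside the gene as annotated, whose start is earlier than RefSeq's, and are left out. Capitals mark the sterol regulatory element core TCACNCCAC and the CCAAT box on either strand.
Hmgcs1: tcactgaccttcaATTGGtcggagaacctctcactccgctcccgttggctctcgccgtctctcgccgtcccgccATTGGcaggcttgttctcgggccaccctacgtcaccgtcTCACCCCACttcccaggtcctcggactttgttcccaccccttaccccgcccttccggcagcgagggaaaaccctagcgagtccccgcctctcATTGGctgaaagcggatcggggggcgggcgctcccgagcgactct
Srebf2: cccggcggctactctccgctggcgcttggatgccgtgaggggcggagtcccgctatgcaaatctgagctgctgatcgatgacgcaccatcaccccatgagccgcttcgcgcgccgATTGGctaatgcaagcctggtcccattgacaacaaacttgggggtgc
Fasn: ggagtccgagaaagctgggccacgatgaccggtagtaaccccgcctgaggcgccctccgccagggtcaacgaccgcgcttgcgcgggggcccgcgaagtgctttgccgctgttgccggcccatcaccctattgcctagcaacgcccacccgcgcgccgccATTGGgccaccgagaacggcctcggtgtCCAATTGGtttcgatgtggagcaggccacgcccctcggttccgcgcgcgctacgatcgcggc

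Windows running from 250 bases before to 50 after a start site numbered 28, for 23 members, of 32851 such windows in all, with 3 each for Dhcr7 and Srebf1 and 2 for Pmvk. No window was held for Fdps, Fdft1, Sqle, Scd1, Scd2 and Stard4. TCACNCCAC, searched on both strands, was found in 1 of 28 member windows (3.57%) and in 1.24% of all windows. The match is in Hmgcs1, as TCACCCCAC starting 137 bases before the RefSeq start site. CCAAT, the motif bound by NF-Y, was found in 21 of 28 member windows (75%), of 20 members, against 37.4% of all windows. It occurs 3 times in the printed stretches of Hmgcs1 and Fasn and 1 time in that of Srebf2. GGGCGG, the motif bound by SP1, was found in 21 of 28 member windows (75%), of 19 members, against 35.7%, and the E-box CACGTG in 4 (14.3%; Dhcr7, Hsd17b7, Insig1 and Sc5d) against 7.15%. These matches describe letters only, and the members were not matched to other genes for base composition.

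Gel against plastic in 2i was compared first, in the 6 bulk libraries. The regulator Srebf2 and 4 of 7 fatty acid genes, Fasn, Acaca, Scd1 and Scd2, rose in gel, while in the sterol arm of 11 genes Sqle, Fdft1 and Msmo1 fell and Dhcr7 rose. Of 28 members tested, 7 rose and 4 fell in gel (limma on log2(value + 0.5), Benjamini-Hochberg adjusted p under 0.05). Among all 7878 genes tested 36.9% were called, 18.3% higher and 18.6% lower, so the share of members called was near the background. Without plastic replicate 3, the shallowest library, 6 members were called, 5 higher and 1 lower, against 2415 of 8249 genes, 1260 higher and 1155 lower. For 14 of the 28 members (50%) the gel and plastic values were fully separate, against 49.5% of all genes. The median log2 fold change was -0.080 for the members and -0.022 for all genes. Fdps, the enzyme making farnesyl diphosphate, was not tested, since it had 3 to 11 reads a library. The labels call these libraries triplicates and do not say whether they came from separate cultures, so the p-values measure the spread between these libraries. In bulk RNA, fewer cells with a transcript and less of it per cell cannot be told apart.

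**Figure D1:**
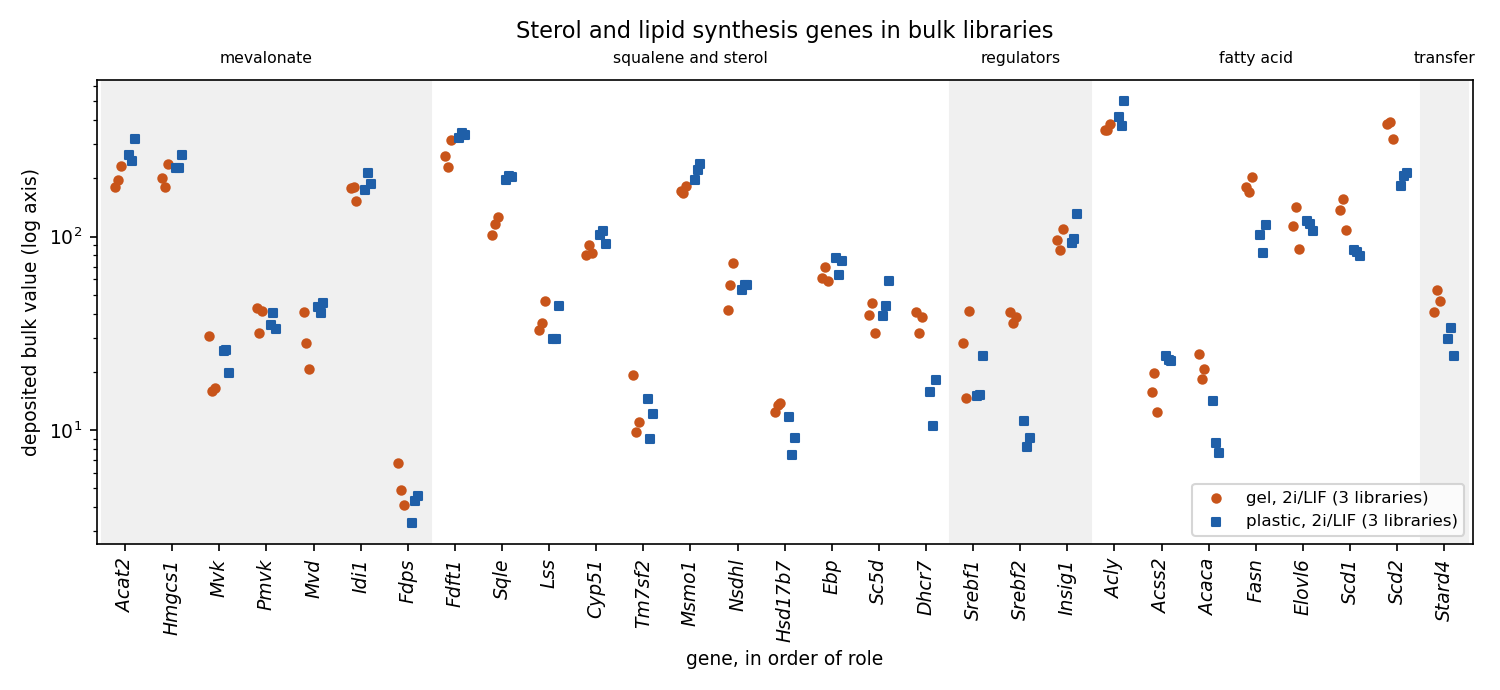
Deposited bulk value of each of the 29 members on a log axis, by role, with 1 point for each library: 3 of cells in gel (circles) and 3 on plastic (squares), all in 2i/LIF. The gel points of Srebf2, Fasn and Scd2 lie above the plastic points without overlap, and those of Sqle below them.

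In the mevalonate arm, 1 of 6 tested members fell and 0 rose, against 18.6% and 18.3% of all genes tested. Acat2, which joins 2 molecules of acetyl-CoA in the cytosol, stood at 180.6, 195.2 and 232.2 in the gel libraries and 262.7, 244.2 and 317.3 on plastic, in the authors' normalized units. All 3 gel values lie below all 3 plastic values, a log2 fold change of -0.44 ± 0.13 (SE; limma adjusted p = 0.0122). Acat2 passed in 12 of 15 alternative settings, and not without gel replicate 1 (limma adjusted p = 0.0633), without plastic replicate 3 (0.0586) or with a trend in length and GC taken off (0.0864). Hmgcs1, the synthase that makes HMG-CoA, stood at 199.8, 179.3 and 237.7 in gel and 226.9, 225.0 and 264.1 on plastic. Its groups overlap, and the log2 fold change of -0.22 missed the threshold (limma adjusted p = 0.174). Mvd, the mevalonate diphosphate decarboxylase, stood at 40.6, 28.2 and 20.6 in gel and 43.2, 40.3 and 45.5 on plastic, with the first gel library inside the plastic range (log2 fold change -0.57, limma adjusted p = 0.0597). It passed as lower with TMM (-0.60, limma adjusted p = 0.0477), without gel replicate 1 (-0.82, 0.0129) and with a trend in length and GC taken off (-0.92, 0.0059). The 2 kinases Mvk and Pmvk and the isomerase Idi1 had log2 fold changes of -0.23, 0.087 and -0.17, with overlapping groups and limma adjusted p of 0.549, 0.761 and 0.310.

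In the sterol arm, 3 of 11 members fell and 1 rose, against 18.6% and 18.3% of all genes tested (36.9% in all), so the share called was near the background. Sqle, squalene epoxidase and a rate-limiting step of sterol synthesis, stood at 101.6, 115.4 and 126.4 in gel and 196.2, 205.0 and 201.9 on plastic. The groups are well separated, at 114 ± 12.5 (SD, n = 3) in gel and 201 ± 4.51 (SD, n = 3) on plastic, a log2 fold change of -0.82 ± 0.12 (SE; limma adjusted p = 8.33e-05). Fdft1, which makes squalene, stood at 261.8, 229.6 and 313.3 against 322.9, 344.0 and 332.5. Msmo1, the methyl sterol oxidase, stood at 172.7, 167.0 and 181.4 against 194.9, 221.5 and 236.8. Both were lower in every gel library, each with a log2 fold change of -0.32 ± 0.12 (SE; limma adjusted p of 0.0386 and 0.0391). These calls were close to the threshold: Fdft1 passed in 8 and Msmo1 in 7 of 15 alternative settings.

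Dhcr7, which reduces the double bond at the last step of one branch of cholesterol synthesis, went the other way. It stood at 40.6, 31.9 and 38.5 in gel and 15.8, 10.6 and 18.2 on plastic, without overlap, from 12 to 38 reads a library. Its log2 fold change was 1.32 ± 0.26 (SE; limma adjusted p = 0.000747). The other 7 sterol enzymes did not pass. Of these, Cyp51, the lanosterol demethylase, was lower in every gel library (log2 fold change -0.24, limma adjusted p = 0.192), and Hsd17b7, a ketoreductase, was higher in every one (0.49, limma adjusted p = 0.279). Lss, Tm7sf2, Nsdhl, Ebp and Sc5d, which cyclize, reduce, decarboxylate, isomerize and desaturate the sterol, had overlapping groups and log2 fold changes of 0.16, 0.12, 0.017, -0.18 and -0.28.

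Among the regulators, Srebf2 had the highest log2 fold change of the 28 tested members. It stood at 40.6, 35.6 and 38.5 in gel and 11.2, 8.22 and 9.11 on plastic, where it rested on 27, 21 and 6 reads. Every gel value was above every plastic value, at 38.2 ± 2.52 against 9.52 ± 1.54 (SD, n = 3 each), a log2 fold change of 1.96 ± 0.26 (SE; limma adjusted p = 2.37e-05). Srebf1, which drives the fatty acid arm, stood at 28.2, 14.7 and 41.2 in gel and 14.96, 15.3 and 24.3 on plastic. The second gel library was below all plastic libraries, and the log2 fold change of 0.53 did not pass (limma adjusted p = 0.209), though it did with edgeR (0.75, adjusted p = 0.0395) and without the second gel library (0.93, limma adjusted p = 0.0251). Insig1, the sterol-sensing retention protein and itself a target of SREBP, stood at 95.9, 84.7 and 109.9 in gel and 92.3, 97.4 and 130.6 on plastic, with overlapping groups (log2 fold change -0.13, limma adjusted p = 0.543).

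**Figure D2:**
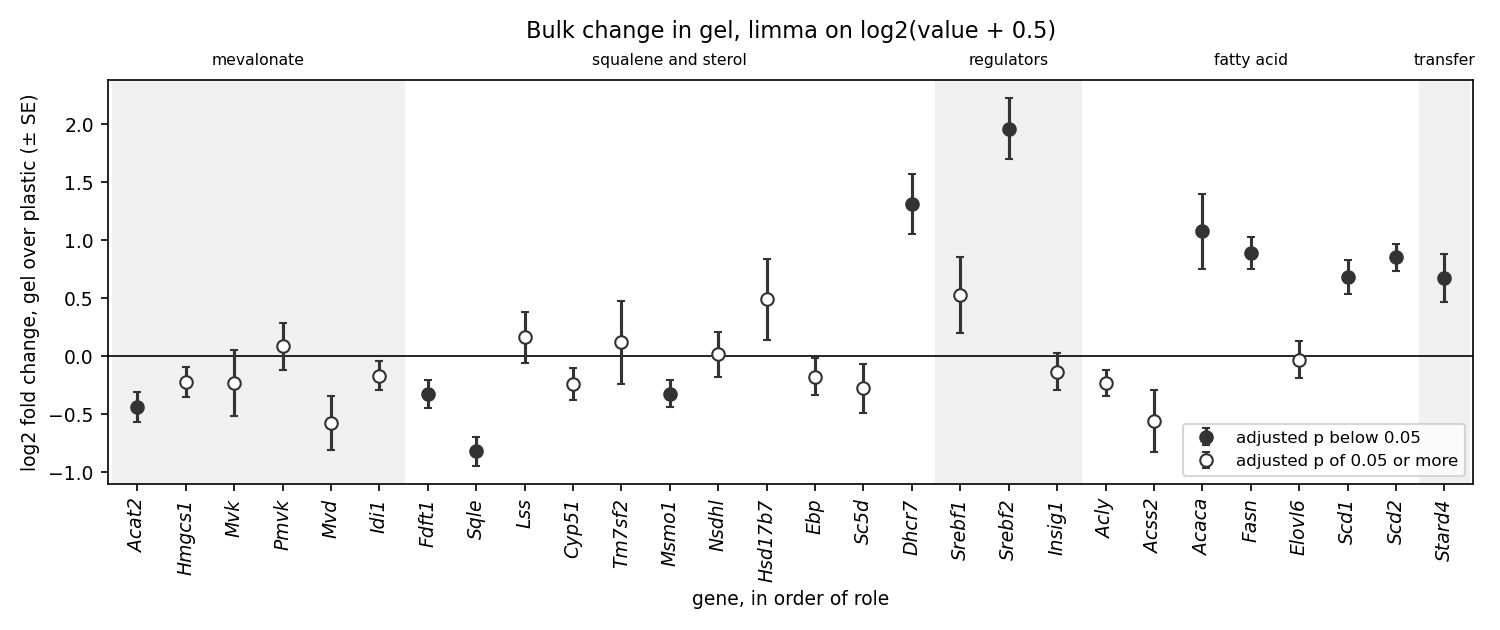
Log2 fold change, gel over plastic in 2i/LIF, of the 28 members tested, with bars of 1 SE, grouped by role (3 libraries a group). Filled points passed an adjusted p of 0.05 with limma: Srebf2 is the highest point at 1.96, and Sqle the lowest at -0.82.

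In fatty acid synthesis, 4 of 7 members rose and 0 fell, against 18.3% and 18.6% of all genes tested. With a trend in length and GC taken off, however, 2 rose, Scd1 and Scd2, and 1 fell, Acly. Of all 7688 genes tested with that trend off, 1189 were called higher and 1192 lower. Fasn, the fatty acid synthase, stood at 179.4, 170.7 and 202.0 in gel and 101.8, 82.2 and 115.4 on plastic, without overlap. Its means were 184 ± 16.2 and 99.8 ± 16.7 (SD, n = 3 each), a log2 fold change of 0.89 ± 0.14 (SE; limma adjusted p = 0.000118), which became 0.13 with that trend off (limma adjusted p = 0.455). Acaca, the acetyl-CoA carboxylase that makes malonyl-CoA, stood at 24.8, 18.4 and 20.6 against 14.1, 8.61 and 7.59, from 5 to 34 reads a library (log2 fold change 1.08 ± 0.32 SE, limma adjusted p = 0.0138). For Acaca too, every gel library was above every plastic library, but its call was close to the threshold. It passed in 10 of 15 alternative settings, and not with DESeq2 (adjusted p = 0.0527), with the trend off, or without gel replicate 1 (limma adjusted p = 0.0596), plastic replicate 2 (0.0522) or plastic replicate 3 (0.0505).

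The stearoyl-CoA desaturases Scd1 and Scd2, which put the first double bond into saturated fatty acids, rose together. Scd2 stood at 379.2, 390.4 and 317.4 in gel and 182.9, 204.3 and 212.5 on plastic (log2 fold change 0.85 ± 0.12 SE, limma adjusted p = 2.61e-05). Scd1 stood at 136.6, 157.2 and 108.6 against 85.2, 83.0 and 78.9 (0.68 ± 0.15 SE, limma adjusted p = 0.00163). For both genes the lowest gel value was above the highest plastic value. They are neighbouring paralogs on chromosome 19, at 44293674 to 44306864 (Scd2) and 44394455 to 44407879 (Scd1) in GRCm38, and reads that fit both could have been split between them.

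The other fatty acid genes did not pass. Acss2, an acetyl-CoA synthetase, was lower in every gel library, at 15.8, 19.6 and 12.4 against 24.1, 23.1 and 22.8 (log2 fold change -0.56, limma adjusted p = 0.108). Acly, the citrate lyase that supplies cytosolic acetyl-CoA, and Elovl6, an elongase, had log2 fold changes of -0.23 and -0.029 with overlapping groups (limma adjusted p of 0.115 and 0.904). Stard4, which carries cholesterol between membranes, stood at 40.6, 52.8 and 46.7 in gel and 29.5, 33.7 and 24.3 on plastic, without overlap (0.68 ± 0.20 SE, limma adjusted p = 0.0148). Stard4 passed in 12 of 15 alternative settings, and not with DESeq2 (adjusted p = 0.0605) or without gel replicate 2 (limma adjusted p = 0.057) or plastic replicate 3 (0.0578).

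The bulk values on plastic were also put in order per kilobase of the longest annotated transcript. The highest were Acat2 at 122 and Acly at 97.0 normalized units per kilobase. The lowest were Srebf2 at 1.87, Fdps at 1.38 and Acaca at 1.06. The place of Fdps is uncertain, since it had 3 to 11 reads a library and its exons overlap those of Gm43738. Fdft1 (90.1), Msmo1 (73.3) and Hmgcs1 (68.9) came next below Acly. In gel, Acat2 (90.1), Acly (82.1) and Fdft1 (72.5) were still the highest, and Scd2 reached 66.4 from 36.6. The order differed in single cells of wild type in 2i on plastic, of another line and assay. Srebf2 stood there at 166 CPM, above Acly at 159 and Acat2 at 67.5, while Fdps (21.5) and Acaca (48.5) were again lower. The bulk means on plastic, before division by length, were 9.52 for Srebf2, 429 for Acly and 275 for Acat2. The cause was not tested, so the low bulk value of Srebf2 does not show a low level in 2i cells. The fold change of Srebf2 rests on such values.

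The bulk changes moved with base composition and with transcript length. Over all genes, the median log2 fold change went from -0.23 in the lowest of 4 equal bins of transcript GC to 0.25 in the highest bin, and the share called higher in gel from 7.80% to 31.1%. In 4 equal bins of length, from short to long, the medians were 0.20, -0.20, -0.17 and 0.079. Across genes, which are not independent replicates, the log2 fold change had a Pearson r with log2 length of 0.44 over the 28 members tested and -0.085 over 7688 genes with a length. The transcripts of Srebf2 and Fasn hold 57.9% GC each, those of Msmo1 and Hmgcs1 44.7% and 43.1%. With a trend in length and GC taken off, 9 of 28 members passed, 5 higher and 4 lower, against 31.0% of all genes. Srebf2, Dhcr7, Scd1, Scd2 and Sqle passed then and in all 15 alternative settings. Beside Fasn, Acaca (log2 fold change 0.74, limma adjusted p = 0.0833), Acat2 (-0.27, 0.0864) and Msmo1 (-0.011, 0.947) did not pass with the trend off. Acly (-0.36, 0.0083) and Mvd passed as lower with it off.

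Other genes of the pathways were taken from lists by function, to be read against the 18.3% of all genes called higher and 18.6% called lower. Of 5 regulators and processing proteases, Nr1h2, a liver X receptor, rose in gel (log2 fold change 1.17) and Mbtps1, the site-1 protease that cuts SREBP, fell (-0.82). Of 12 genes of fatty acid elongation, desaturation and esterification, 2 rose and 2 fell, with Acsl3 (-0.98), Slc25a1 (0.95) and Hacd3 (-0.70) furthest from 0. Of 7 genes of sterol uptake, transport and storage, the exporter Abcg1 fell (-1.06) and the lysosomal carrier Npc2 rose (0.29). Of 8 genes of fatty acid breakdown 0 rose and 3 fell, Acadvl (-1.10) and Cpt2 (-0.80), which serve mitochondrial oxidation of long chains, and Acadm (-0.34), which acts on medium chains. Acadvl had overlapping groups and 4 to 9 reads in the gel libraries, and Cpt2 had 7 to 17. Both calls were close to the threshold (limma adjusted p of 0.0409 and 0.0391). The naive pluripotency genes Esrrb (1.55) and Klf4 (1.84) rose and Nanog fell (-0.34), all by limma at the same threshold. The summed level of the 8 ES cell markers was 7606 to 7839 in gel and 5643 to 6457 on plastic. Dppa5a made up most of it, at 5467 to 5620 in gel and 3230 to 4262 on plastic, so the sum mainly follows that gene. Of the 8 markers 5 were called higher in gel and 2 lower, Nanog and Zfp42 (-0.32). Of the 8 primitive endoderm markers 1 had a row, Lama1, at 23.7 to 25.8 in gel and 9.11 to 16.4 on plastic, while the fibroblast and liver-like lists had none. The part of these shifts in the member results was not tested.

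The medium comparison rests on single cells, wild type in 2i against wild type in serum, both on plastic. The desaturase Scd2, the regulator Srebf1 and the sterol genes Nsdhl and Fdft1 were higher in 2i. With 1 library per condition no difference has a replicate check, and the intervals cover counting error only. A gene was called when it differed by at least 1.5-fold with a 95% exact binomial interval that left out equality, among genes with a mean of at least 20 CPM over the 5 libraries. Of the 29 members 18 reached that level. The other 11, Mvk, Mvd, Fdps, Tm7sf2, Hsd17b7, Ebp, Sc5d, Dhcr7, Insig1, Acss2 and Scd1, were too low. Of the 18, 4 were called higher and 1 lower in 2i, against 16.2% of 6471 genes called higher and 20% lower (36.2% in all). The median log2 ratio was 0.34 over these members and -0.016 over all genes. With TMM factors the median of all genes moved to 0.12, and the split of calls over all genes from 1046 higher and 1294 lower to 1401 and 1022. The members called were then 6 higher and 1 lower.

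**Figure D3:**
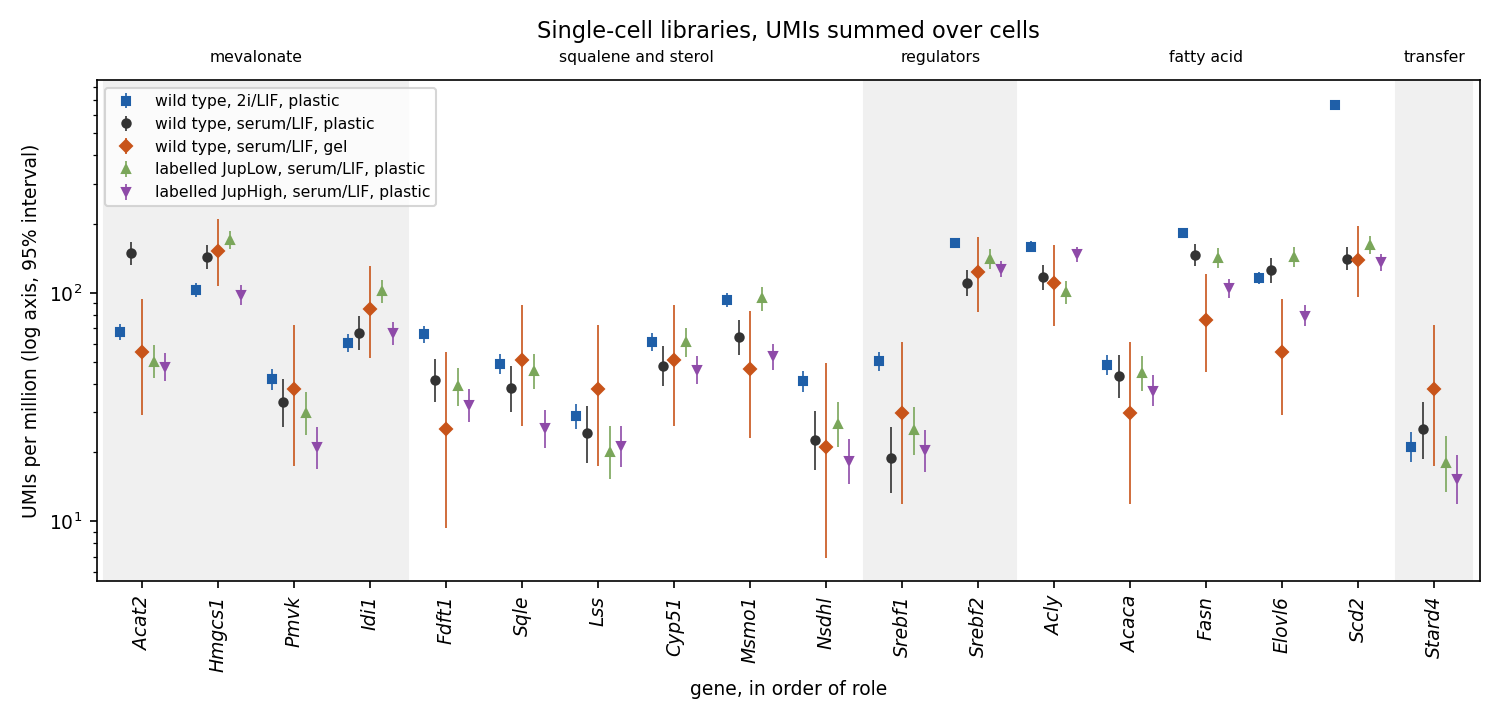
CPM of the 18 members with a mean of at least 20 CPM in each of the 5 single-cell libraries, on a log axis with 95% exact Poisson intervals (counting error only). Scd2 in 2i, at 662 CPM, stands apart from the 4 serum libraries, which lie between 136 and 162.

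Scd2 stood at 141 CPM in wild-type serum on plastic, 662 in 2i, 140 in the serum gel, 162 in JupLow and 136 in JupHigh. The 2i library is high and the 4 serum libraries lie close together. Against wild-type serum on plastic this was a log2 ratio of 2.23 (2.06 to 2.41), or 4.69-fold. Scd1 was also highest in 2i, with 12.4 CPM in wild-type serum, 52.1 in 2i and 5.34 to 9.38 in the other serum libraries (log2 ratio 2.07, 1.49 to 2.72), but fell short of the level required for a call. Acly stood at 117 CPM in serum and 159 in 2i (0.44, 0.24 to 0.65), and Fasn at 147 and 183 CPM (0.32, 0.14 to 0.50). Both were higher in 2i by less than 1.5-fold. Acaca and Elovl6 differed by 0.17 (-0.17 to 0.52) and -0.11 (-0.31 to 0.10), intervals that hold 0.

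Of the regulators, Srebf1 stood at 18.8 CPM in wild-type serum, 50.1 in 2i, 29.6 in the serum gel, 25.01 in JupLow and 20.4 in JupHigh. The 2i value was the highest of the 5, with a log2 ratio of 1.41 (0.93 to 1.93) to wild-type serum. Srebf2 stood at 110 CPM in wild-type serum and 166 in 2i, with 123, 141 and 127 in the other serum libraries in the same order. Its log2 ratio of 0.58 (0.38 to 0.79) was under 1.5-fold. Insig1, below the level for a call, stood at 10.9 and 22.5 CPM (1.04, 0.40 to 1.75).

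In the sterol arm, Nsdhl, the sterol dehydrogenase that takes part in removing methyl groups, stood at 22.8 CPM in serum and 40.9 in 2i (log2 ratio 0.84, 0.40 to 1.32). Fdft1 stood at 41.6 and 66.0 CPM (0.67, 0.33 to 1.01). Both were called higher. Msmo1, at 63.9 and 92.9 CPM (0.54, 0.27 to 0.82), and Cyp51 (0.34, 0.03 to 0.67) were higher by less than 1.5-fold, while the intervals of Sqle (0.35, -0.00081 to 0.72) and Lss (0.25, -0.20 to 0.72) hold 0. Ebp, the sterol isomerase, was under the required level and varied widely, at 9.91 CPM in wild-type serum, 40.8 in 2i, 12.7 in the serum gel, 6.95 in JupLow and 25.3 in JupHigh.

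In the mevalonate arm, Hmgcs1 went down, from 144 CPM in serum to 103 in 2i (log2 ratio -0.48, -0.68 to -0.29), by less than 1.5-fold. Pmvk (0.33, -0.05 to 0.73) and Idi1 (-0.15, -0.43 to 0.14) had intervals that hold 0. Acat2 was the member called lower, at 149 CPM in wild-type serum against 67.5 in 2i (-1.14, -1.35 to -0.94). The other 3 serum libraries held 47.3 to 55.0 CPM of Acat2, so wild-type serum on plastic alone was high. Tcp1, the gene next to Acat2, was low in that library, at 98.1 CPM against 213 to 308 elsewhere. Tm7sf2 also was highest there, at 26.3 CPM against 4.23 to 16.3. Gm43738, whose exons overlap Fdps, stood at 66.9 CPM where Fdps had no column, and at 0.12 to 4.23 CPM in 3 of the others, with no column in JupLow. Values of these 3 members in that library are therefore uncertain, as are those of members whose exons overlap another gene. Whether reads were counted by strand is not given in the sources used here.

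To set 2i apart from that library, it was compared with all 4 serum libraries, an analysis added after the data were seen. Scd2, Srebf1, Nsdhl and Fdft1 were at least 1.5-fold higher in 2i than in every serum library, 4 of 18 members (22.2%) against 4.21% of 6455 genes. The count below every serum library by that fold was 0 members, against 5.36% of genes. These counts used the CPM values alone, without intervals. In the serum gel Srebf1 rested on 7 UMIs (29.6 CPM, 11.9 to 61.1) and Nsdhl on 5 (21.2 CPM, 6.87 to 49.4). Both intervals hold the 2i values of 50.1 and 40.9 CPM. Nsdhl and Fdft1 passed narrowly, at 1.53 and 1.59 times the highest serum library. Without a fold, 2i was above all 4 for 10 of 18 members (55.6%, against 25.9% of genes) and below all 4 for 1, Idi1 (22.3% of genes). Against JupLow alone, line and medium both differ and cannot be told apart. There 5 members were called higher in 2i, Acly in addition to the 4 named, with 35.3% of 6619 genes called. Called lower were 2, Hmgcs1 (-0.73, -0.89 to -0.57) and Idi1 (-0.75, -0.97 to -0.54). For both, JupLow held the highest CPM of the 5 libraries, at 171 and 102. The same 7 members were called also without cells carrying at least 2 primitive endoderm UMIs (34.9% of genes). At a fold of 2 they became 2 higher and 0 lower (1060 of 6619 genes). Without genes that have an exon overlap, 2 of 10 members were higher and 0 lower (1567 of 4292 genes).

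Other cells differed too. The 8 primitive endoderm markers summed to 876 CPM in wild-type serum on plastic, 40.0 in 2i, 186 in the serum gel, 121 in JupLow and 95.3 in JupHigh. All 8 had UMIs in wild-type serum, while Gata6 had no column in the 2i table and Pdgfra was at 0 in the gel. Cells with at least 2 such UMIs made up 14.1% of wild-type serum and 1.38% of 2i. Without these cells in any library, 6 members were called higher and 1 lower in 2i (35.6% of genes called): the log2 ratios were 2.51 for Scd2, 1.63 for Srebf1, 0.82 for Nsdhl, 0.70 for Fdft1, 0.64 for Msmo1 and 0.61 for Srebf2. The fibroblast markers summed to 39.6 CPM in wild-type serum and 27.8 in JupLow, and to 2.90 to 4.87 in the other libraries. The liver-like list was under 1 CPM in all 5. The part of the fibroblast signal was not tested.

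**Figure D4:**
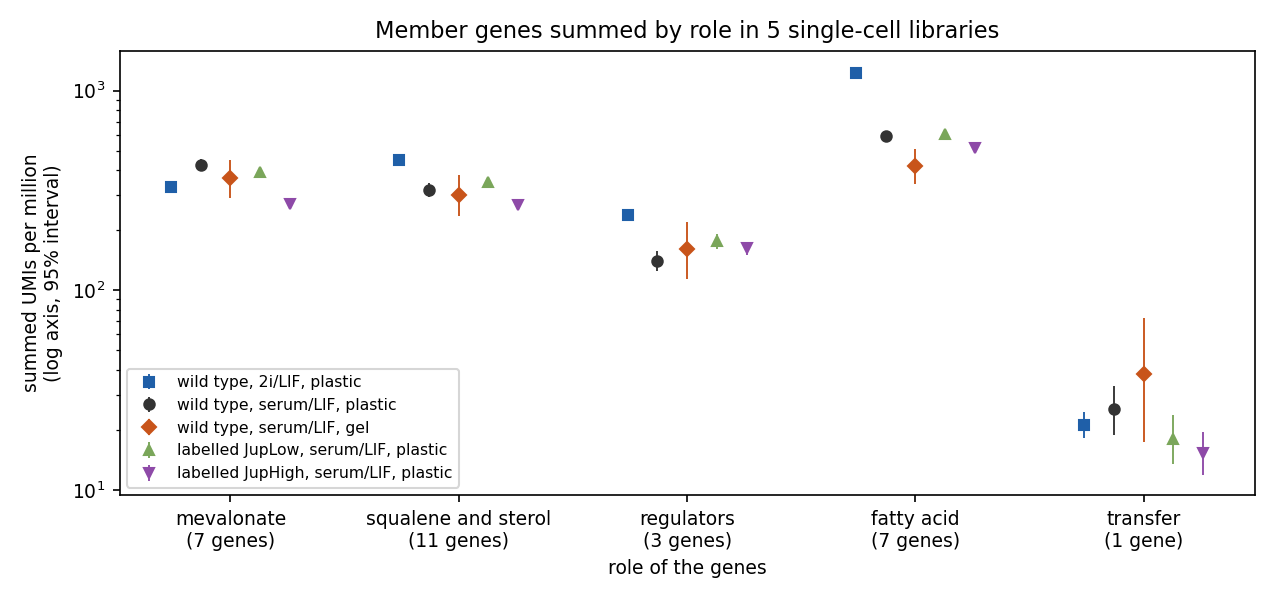
Summed CPM of the members of each role in the 5 single-cell libraries, with 95% exact Poisson intervals. Fatty acid synthesis genes reach 1230 CPM in 2i against 419 to 605 in serum, while the mevalonate genes stand at 329 CPM in 2i and 271 to 423 in serum.

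Summed over all 29 members, the level was 1496 CPM in wild-type serum on plastic, 2266 in 2i, 1283 in the serum gel, 1538 in JupLow and 1230 in JupHigh. Without Acat2, Fdps and Tm7sf2 the sums were 1320, 2160, 1215, 1466 and 1165, in the same order. The 2i sum is the highest, and Scd2 alone made up 662 of it. The sterol arm summed to 317 CPM in wild-type serum, 447 in 2i, 301 in the serum gel, 347 in JupLow and 267 in JupHigh.

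Per cell, with every cell thinned to 1000 UMIs, at least 1 member UMI was seen in 73.0% of cells in wild-type serum (exact binomial 95% interval 69.6 to 76.2), 83.2% in 2i (81.8 to 84.5), 68.8% in the serum gel (59.3 to 77.2), 70.4% in JupLow (67.7 to 73.0) and 65.8% in JupHigh (63.8 to 67.8). Before thinning, at median depths of 1731.5 to 2465 UMIs, these shares were 89.1%, 92.9%, 86.6%, 87.4% and 82.8%. The intervals are taken over the cells of 1 library each and do not measure the spread between cultures. For Scd2 alone the thinned share was 43.9% of cells in 2i and 12.4% to 14.3% in the serum libraries (68.8% and 20.5% to 26.2% before thinning). Without Scd2 the share was 73.6% in 2i and 62.5% to 69.4% in serum. In barcodes under 500 UMIs, which can hold free RNA, Scd2 stood at 192 to 279 CPM in the serum libraries, above the level in their cells. The 2i table held 1 such barcode, so the free RNA there was not measured. No cell type that lacks these genes was available for a background share. The variance of member UMIs over cells was 1.08 to 1.46 times the mean at this depth.

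Gel against plastic in serum was compared in wild-type single cells, where the gel library held 112 cells and 236195 UMIs. Most members were not distinguishable at this depth. Of 18 members 0 were called higher and 3 lower, against 6.92% and 8.65% of 6471 genes (15.6% in all), and the median log2 ratio was 0.032 over the members and -0.053 over all genes. Fasn stood at 147 CPM on plastic and 76.2 in gel (log2 ratio -0.94, -1.72 to -0.26). Elovl6 stood at 125 and 55.0 CPM (-1.19, -2.12 to -0.39). The third was Acat2 (-1.44, -2.36 to -0.64), which is uncertain on plastic as above. By CPM, both Fasn and Elovl6 were lower in the gel library than in any of the plastic serum libraries, which include the plakoglobin lines. The gel values rest on 18 UMIs for Fasn (45.2 to 120 CPM) and 13 for Elovl6 (29.3 to 94.1). These intervals hold the JupHigh values of 105 and 79.6 CPM. With barcodes of at least 500 UMIs Fasn was no longer called, at -0.087. Without cells carrying at least 2 primitive endoderm UMIs the same 3 members were called, against 14.5% of genes.

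Apart from Fasn, none of the 7 members that rose in gel in bulk was called here, Dhcr7 and Scd1 being under the required level. Scd2 was at 141 CPM on plastic and 140 in gel (log2 ratio -0.016, -0.58 to 0.51), and Srebf2 at 110 and 123 CPM (0.15, -0.46 to 0.71). Sqle, lower in gel in bulk, was at 38.2 and 50.8 CPM (0.41, -0.60 to 1.30). Acss2 had 0 UMIs in the gel library. Line, medium and assay all differ between the bulk and single-cell comparisons, and the difference between them was not tested. Among the other pathway genes, Me1, the malic enzyme that supplies NADPH, was lower in gel (-2.57), as was Acadl, of fatty acid breakdown (-0.85), and the elongase Elovl5 was higher (0.86). The gel value of Me1 rests on 3 UMIs. Wild-type serum on plastic alone was high for Me1, at 75.3 CPM against 12.7 to 41.3 elsewhere, so its ratio is uncertain. For Elovl5 that library was the lowest of the 5, at 49.1 CPM against 66.3 to 88.9 elsewhere. The gel value of Elovl5 rests on 21 UMIs (88.9 CPM, 55.0 to 136), so its ratio is uncertain too.

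**Figure D5:**
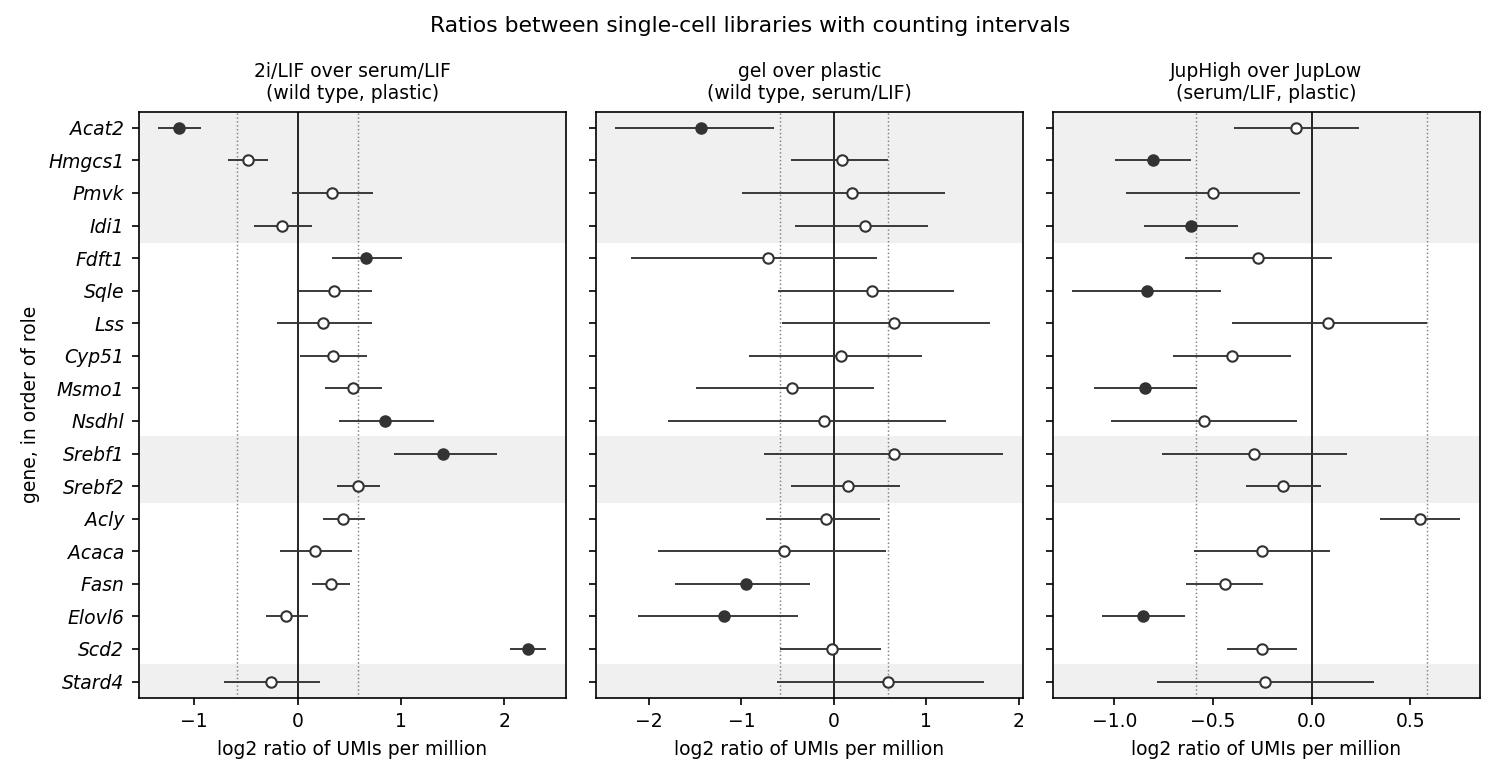
Log2 ratios of the 18 members with a mean of at least 20 CPM, with 95% exact binomial intervals (counting error only), for 2i over serum, gel over plastic and JupHigh over JupLow. Filled points were called (1.5-fold or more, marked by dotted lines, with an interval that leaves out 0). Scd2 stands out in the first panel at 2.23, intervals are wide in the second, and the 5 called members lie to the left in the last.

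The plakoglobin lines were compared with each other in serum on plastic. Hmgcs1 and Idi1 of 4 tested mevalonate genes, Sqle and Msmo1 of 6 tested sterol genes, and the elongase Elovl6 were lower in the library labelled JupHigh, each by less than 2-fold. Of 18 members 0 were called higher and 5 lower, against 6.18% of 6619 genes higher and 15.8% lower (22.0% in all). The median log2 ratio was -0.35 over the members and -0.12 over all genes. With TMM factors the median of all genes became -0.0052, and the split over all genes went from 409 higher and 1045 lower to 567 and 804. Members then were 1 higher (Acly, 0.66) and 4 lower, Idi1 no longer being called. Without cells carrying at least 2 primitive endoderm UMIs the same 5 were called (21.1% of genes).

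Hmgcs1 stood at 171 CPM in JupLow and 97.9 in JupHigh (log2 ratio -0.80, -0.9952 to -0.61), with wild-type serum between them at 144 CPM. Msmo1 stood at 94.5 and 52.7 CPM (-0.84, -1.10 to -0.58) and Sqle at 45.5 and 25.5 (-0.83, -1.21 to -0.46). Idi1, which interconverts the isoprenoid building blocks, stood at 102 and 66.6 CPM (-0.61, -0.85 to -0.37). In wild-type serum Msmo1 and Sqle, at 63.9 and 38.2 CPM, also lay between the plakoglobin lines, and Idi1 was at 66.9 CPM, next to JupHigh. Of the fatty acid genes, Elovl6 was lower, at 144 and 79.6 CPM (-0.85, -1.06 to -0.64), and Fasn was lower by less than 1.5-fold, at 142 and 105 CPM (-0.44, -0.64 to -0.25). Acly was higher in JupHigh, at 101 and 147 CPM (0.55, 0.35 to 0.75), under 1.5-fold. Srebf2 (-0.14, -0.33 to 0.04) and Srebf1 (-0.29, -0.76 to 0.18) had intervals that hold 0. Under the required level, Ebp was higher in JupHigh (1.86, 1.17 to 2.63).

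The naive genes differed between these libraries as well: Nanog was higher in JupHigh by a log2 ratio of 2.28, Esrrb by 1.98 and Klf4 by 2.33, while Pou3f1, a gene of primed cells, was lower (-5.08). In 2i against wild-type serum the same 4 genes had log2 ratios of 2.70, 2.26, 1.83 and -6.98. The 8 ES cell markers summed to 2206 CPM in JupLow and 3807 in JupHigh, and mitochondrial genes took 11.4% and 14.8% of UMIs. Their part in the member results was not tested.

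Each plakoglobin line was also set against wild-type serum, the library that the media and gel comparisons share. In JupHigh 0 members were called higher and 4 lower (11.3% and 21.6% of 6470 genes; 32.9% in all): Acat2, Pmvk (-0.65, -1.12 to -0.18), Elovl6 (-0.66, -0.89 to -0.42) and Stard4 (-0.72, -1.27 to -0.17). With TMM factors the median of all genes moved from -0.14 to 0.053 and the split from 729 higher and 1397 lower to 1075 and 947, and of the members Acat2 alone was called. In JupLow Idi1 was called higher (0.61, 0.31 to 0.91) and Acat2 lower, against 8.38% and 8.81% of 6468 genes (17.2% in all). Without cells carrying at least 2 primitive endoderm UMIs, Msmo1 (0.63) was called in place of Idi1 in JupLow (16.7% of genes), and Hmgcs1 (-0.65) in place of Stard4 in JupHigh (30.9%).

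Among other pathway genes in single cells, 4 of 10 genes of elongation, desaturation and esterification were called higher and 2 lower in 2i against wild-type serum (16.2% and 20% of all genes). The furthest from 0 were Acsl4, which activates polyunsaturated fatty acids (-1.46), the desaturase Fads1 (1.24) and Tecr, a reductase of the elongation cycle (1.06). Fads1 reached the required level only through 2i, at 45.6 CPM against 14.2 to 19.3 in the serum libraries, so its call follows from the filter and supports nothing. In JupHigh against JupLow 0 of these 10 were called higher and 4 lower (6.18% and 15.8% of all genes), with the desaturase Fads2 (-1.41), Acsl3 (-1.05) and Acsl4 (-0.85) in front. In JupHigh against wild type 4 were lower (21.6% of all genes), led by Me1 (-1.97), Fads2 (-1.53) and Acsl4 (-1.20), and in JupLow against wild type Me1 was (-1.19; 8.81% of all genes). These Me1 ratios are uncertain, since wild-type serum on plastic alone was high, at 75.3 CPM against 12.7 to 41.3 elsewhere.

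The lists that follow are short, and the same shares of all genes apply to them. Of 3 genes of sterol uptake, transport and storage, Npc2 (2.03) and Osbp, which moves sterol between membranes (1.43), were higher in 2i than in wild-type serum, and Soat1, which esterifies cholesterol for storage, was lower (-3.41). Soat1 was lower and Osbp higher in JupHigh, against JupLow (-1.53 and 0.65) and against wild type (-2.01 and 0.63). Of 5 genes of fatty acid breakdown, Acadl was lower (-4.94) and Acadm higher (1.19) in 2i. Acadl was lower in JupHigh than in JupLow (-1.58) and lower than in wild type in both lines (-4.54 in JupHigh, -2.96 in JupLow), and Acadm was higher in JupHigh than in wild type (0.71). By its ratios, Acadl was highest in wild-type serum on plastic and in gel, so its place among the genes tested rests mostly on those libraries. Its calls in 2i and in the plakoglobin lines therefore support nothing further. Of 4 regulators and processing proteases, Mlxipl, which encodes the carbohydrate-responsive factor ChREBP, was higher in 2i (0.96) and in JupHigh against JupLow (0.89), and Mbtps2, the site-2 protease that cuts SREBP, was lower in 2i (-0.67).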

How the data were processed

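The bulk values deposited by the authors are a normalized signal: gene counts divided by 1 factor per library, as judged from the values, since 100% came out as whole reads within 0.01 reads. The single-cell values deposited by the authors are whole UMI counts per gene and barcode. FastQC, STAR, featureCounts, DESeq2 and Scanpy are named, without versions or roles, per the submitters' processing notes, with mm10 and GRCm38. Bulk groups were compared with limma 3.58.1 (intensity trend) in R 4.3.3 on log2(value + 0.5), over genes passing edgeR's filterByExpr on recovered reads. edgeR 4.0.16 and DESeq2 1.42.0 on recovered reads were alternatives. UMIs were summed over cells of at least 1000 UMIs with Python 3.11.15, and CPM were taken over all named genes. Doublets were treated only by an alternative without barcodes above 3 times the median. UMIs of columns without a gene name took 0.00509% to 0.499%. Scripts were tested on simulated data. Positions and exon overlaps came from GENCODE M21.

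Bulk columns whose names hold both marks, for gel and for plastic, were taken as plastic. Replicate numbers follow the titles, since a description differs for plastic replicate 2. To look for duplicates, read counts were compared between bulk libraries of the same group, and chi-square was 1.66 to 2.36 per degree of freedom. No threshold was set, and gel libraries were not compared with plastic ones in this way.

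The members, lists and tests were chosen with earlier results of these data known. Every member is accounted for, and other pathway genes are named when they are among the 3 called genes furthest from 0 in a list and comparison, 2i against JupLow left out. Adjusted p-values run over all genes tested. Samples were grouped by their titles. The list of other sterol synthesis genes is not reported here.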

Additional observations from a re-analysis of the deposited data

Results flagged for a closer look

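Fasn had opposite signs in the gel comparisons. In serum single cells its log2 ratio of gel to plastic was -0.94 (95% exact binomial interval -1.72 to -0.26), and in bulk 2i it was higher in each of the 3 gel libraries than in any plastic library, with a log2 fold change of 0.89. Neither call held in every setting: the single-cell ratio was -0.087 with barcodes of at least 500 UMIs, and the bulk value was 0.13 (limma adjusted p = 0.455) with the length and GC trend taken off. The difference was not tested, and line, medium and assay cannot be told apart in it.

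Gm43738, whose exons overlap Fdps, stood at 66.9 CPM, 135 UMIs, in wild-type serum on plastic, and at 1 UMI in each of 2i, the serum gel and JupHigh. No comparison used this gene.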

How the results depend on the processing

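Of the alternatives, 65 values that summarise a comparison stayed within their limits and 22 moved. The 11 bulk members called became 7 with DESeq2 (2188 of 7878 genes, from 2906), and 6 to 11 when each library was left out, with 2361 to 2833 genes called in all. The replicate numbers did not pair the bulk libraries: deviations of same-numbered gel and plastic libraries correlated at -0.052, 0.016 and 0.024. With a replicate block 11 members and 2988 genes were called.

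In 2i against wild-type serum the 5 of 18 members called became 9 of 22 (2752 of 7265 genes) with totals that left out mitochondrial and ribosomal protein genes, 1 of 6 (459 of 1628) at a mean of at least 100 CPM, 3 of 18 (1248 of 6471) at a fold of 2 and 2 of 10 (1404 of 4215) without genes that have an exon overlap, such as Scd2, Srebf1 and Fdft1. The same numbers of members were tested under these settings in the other comparisons. In JupHigh against JupLow the 5 became 2 at 100 CPM (253 of 1676 genes), 0 at a fold of 2 (572 of 6619) and 2 without overlaps (980 of 4292). There, 2 were higher and 4 lower with the other totals (1664 of 7434), and 1 higher and 3 lower at 500 UMIs a barcode (1701 of 6632). In gel against plastic in serum 1 was higher and 2 lower at 500 UMIs (1157 of 6474). In JupHigh against wild type the 4 became 2 at 2000 UMIs a barcode (2148 of 6588) and 1 each with TMM factors (2022 of 6469), at 100 CPM (424 of 1623) and at a fold of 2 (1018 of 6470). With the other totals 1 was higher and 5 lower (2391 of 7268), and at 500 UMIs 1 higher and 3 lower (2188 of 6473). In JupLow against wild type the 2 became 1 at 500 UMIs a barcode (884 of 6470), 0 at 100 CPM (210 of 1624), and 1 each at a fold of 2 (504 of 6468) and without overlaps (553 of 4213). Member UMIs per 1000 UMIs and cell, at 2.10 in 2i, 1.43 in JupLow and 1.22 in JupHigh, became 2.35, 1.61 and 1.27 in cells thinned to 2000 UMIs, and 2.27 and 1.54 in 2i and JupLow without thinning. The 100 CPM and exon overlap settings test fewer genes, and the totals setting tests more. For the others the cause was not tested.

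Among single-cell member ratios, 32 of 710 alternative values had the other sign, for 18 ratios, of which 0 were called. Without primitive endoderm cells these included Stard4 in 2i against serum (0.086), and Scd2 in gel against plastic (0.29) and in JupHigh against wild type (0.19). Among bulk members, changes of sign were seen only for those that had not passed. With the length and GC trend taken off the log2 fold changes were 0.074 for Hmgcs1, -0.25 for Pmvk, 0.22 for Idi1, -0.072 for Lss and 0.089 for Insig1. Pmvk stood at -0.058 with thinned reads, Nsdhl at -0.010 with TMM, and Elovl6 at 0.0033 with DESeq2. Leaving out each library gave ranges of -0.16 to 0.30 for Tm7sf2, -0.18 to 0.22 for Nsdhl, -0.23 to 0.023 for Insig1 and -0.20 to 0.16 for Elovl6. Low counts are a limit for Srebf2, Dhcr7 and Acaca among the bulk calls, at 6, 12 and 5 reads in plastic replicate 3. Srebf2 and Dhcr7 passed also with reads thinned to that library. Of the members not called, Hsd17b7, Tm7sf2 and Fdps held 6, 8 and 3 reads there. Low counts are a limit for every member in the serum gel, where Hmgcs1 held the most, at 36 UMIs.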
